A study of Rattus norvegicus with 418 samples.

Results

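The genes followed here are 49 genes of DNA replication and mitosis that dividing cells switch on, taken by symbol. The list was chosen with earlier results of these data known. A member was measured where a probe set of the array carried its symbol and no other. Of several such probe sets the one with the highest mean signal was kept, which left 45 of the 49 members among 14217 genes tested. Members fell into 12 of 14 replication genes, 3 of 3 G1 and S cyclins and 30 of 32 mitosis genes. Cdc6, Ndc80 and Tpx2 were not analysed here, and Rrm2 was represented only by probe sets with several symbols.

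The 418 arrays each held RNA of the liver's left lateral lobe, taken from 1 rat. The rats were F344/N males of 10 to 12 weeks, fasted before dosing. They were 318 dosed and 100 vehicle rats. Rats received 1 of 8 hepatotoxicants, or its vehicle alone, and the labels give times of 6, 24 and 48 h. Corn oil by gavage carried 1,2-dichlorobenzene and 1,4-dichlorobenzene (15, 150 or 1500 mg/kg each), bromobenzene (25, 75 or 250 mg/kg), N-nitrosomorpholine (10, 50 or 300 mg/kg) and thioacetamide (15, 50 or 150 mg/kg). Monocrotaline was also given in corn oil by gavage, and its doses changed with time, being 10, 50 or 300 mg/kg in the 6 h groups. Rats of 24 h got 10, 30 or 50 mg/kg of it, and rats of 48 h got 10 or 50 mg/kg. Phosphate buffered saline, injected intraperitoneally, carried galactosamine (25, 100 or 400 mg/kg) and diquat (5, 10, 20 or 25 mg/kg). There were 4 rats in a group but 6 in each group of diquat, and only 2 rats served as thioacetamide vehicle at 6 h and 2 received 1500 mg/kg 1,2-dichlorobenzene for 48 h. The labels score necrosis in each rat from 0 to 4.

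A cell that leaves quiescence first makes D and E type cyclins, which activate kinases that release E2F transcription factors, and E2F switches on the helicase, clamp and nucleotide genes needed for S phase. Genes of mitosis come later, when the MuvB complex with B-Myb and FoxM1 acts on promoters that hold a CHR element, often beside CCAAT boxes. Adult hepatocytes rarely divide, and after injury or partial hepatectomy they re-enter the cycle within days. Cdkn1a encodes p21, a p53 target that inhibits cyclin-dependent kinases and can hold cells before S phase or before mitosis.

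The promoters of 4 members, 2 of each list, are printed to show the motifs counted. Each holds 300 bases, from 250 before the RefSeq start to 50 after it, in build GRCr8. Capitals in the Mcm5 promoter (chr19:13488563-13488862, plus strand) and the Mcm6 promoter (chr13:42404303-42404602, minus strand) mark the E2F-like letters TTTNNCGC on either strand, with overlapping matches joined into a longer run. Capitals in the Cdk1 promoter (chr20:19265043-19265342, plus strand) and the Cdc20 promoter (chr5:137255750-137256049, minus strand) mark TTTGAA, the core of the CHR element, and CCAAT, each read on either strand. Only the motifs named for a promoter are marked. The Cdk1 promoter also holds 2 matches of TTTNNCGC, the Mcm5 promoter 3 of CCAAT and the Mcm6 promoter 2 of CCAAT, left in lower case.
Mcm5: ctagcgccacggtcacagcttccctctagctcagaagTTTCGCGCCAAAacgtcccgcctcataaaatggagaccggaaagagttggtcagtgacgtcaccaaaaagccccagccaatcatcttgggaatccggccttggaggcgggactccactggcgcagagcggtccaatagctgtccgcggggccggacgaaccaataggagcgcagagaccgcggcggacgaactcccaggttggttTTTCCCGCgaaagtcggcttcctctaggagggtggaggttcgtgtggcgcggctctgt
Mcm6: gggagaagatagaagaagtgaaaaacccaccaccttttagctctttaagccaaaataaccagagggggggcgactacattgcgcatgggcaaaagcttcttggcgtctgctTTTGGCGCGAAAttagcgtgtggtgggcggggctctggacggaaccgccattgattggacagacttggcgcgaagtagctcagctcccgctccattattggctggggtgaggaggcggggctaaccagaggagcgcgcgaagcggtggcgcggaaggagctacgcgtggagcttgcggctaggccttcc
Cdk1: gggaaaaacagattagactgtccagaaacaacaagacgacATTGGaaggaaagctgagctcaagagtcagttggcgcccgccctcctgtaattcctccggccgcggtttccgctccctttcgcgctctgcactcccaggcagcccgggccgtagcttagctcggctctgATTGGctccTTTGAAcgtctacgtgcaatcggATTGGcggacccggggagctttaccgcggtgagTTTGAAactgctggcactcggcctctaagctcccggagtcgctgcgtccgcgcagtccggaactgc
Cdc20: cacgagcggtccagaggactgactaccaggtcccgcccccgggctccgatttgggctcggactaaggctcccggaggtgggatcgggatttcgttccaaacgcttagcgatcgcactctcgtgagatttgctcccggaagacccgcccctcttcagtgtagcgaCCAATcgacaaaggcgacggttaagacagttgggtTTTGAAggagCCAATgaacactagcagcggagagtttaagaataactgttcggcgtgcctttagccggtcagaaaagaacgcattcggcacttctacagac

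A RefSeq promoter was matched for 38 of the 45 measured members, and Mcm4, Ccnd1, Ccne2, Ccna2, Aurkb, Racgap1 and Ube2c had no entry. TTTNNCGC stood in 7 of 11 replication promoters (63.6%) and 4 of 26 mitosis promoters (15.4%, Cdk1, Plk1, Nusap1 and Cdca3), against 4.92% of all promoters in the table. TTTGAA stood in 1 of 11 replication promoters (9.09%) and 19 of 26 mitosis promoters (73.1%), against 18.3% of all. CCAAT was common to both lists, with 7 of 11 (63.6%) and 20 of 26 (76.9%) against 37.5% of all. TTTGAA and CCAAT together stood in 0 of 11 replication and 16 of 26 mitosis promoters (61.5%), against 7.41% of all. These matches describe letters in a window and do not show that a factor binds there.

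Values are MAS5 signals as the study scaled them, and changes are differences of mean log2(signal + 16) between a dosed group and the vehicle group of the same compound and time, with their standard errors. The added 16 shrinks the change of genes with low signal. A gene was called higher or lower at a limma p under 0.05 after Benjamini-Hochberg adjustment over all genes. Each rat is a separate animal, and in whole liver a loss of cells of a type cannot be told apart from less RNA in each of those cells. None of the 10 hepatocyte markers measured lay under a signal of 16 in the vehicle or highest dose groups at 48 h. For thioacetamide, bromobenzene, 1,4-dichlorobenzene, diquat and galactosamine the vehicle and highest dose arrays at 48 h were hybridised on different days. For N-nitrosomorpholine and monocrotaline they shared 1 day. For 1,2-dichlorobenzene the vehicle arrays came from 1 day and the 2 highest dose arrays from 2 days, including that of the vehicle arrays.

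Members were called most often at 48 h. Over the highest dose contrasts of the 8 compounds, with 360 tests of members at each time, members were called higher 22 times (6.11%) and lower 14 times (3.89%) at 6 h, where 9.37% of all tests of genes were called higher and 11.6% lower. At 24 h they were called higher 127 times (35.3%) and lower 1 time, against 20.2% and 15.4% over all genes, and at 48 h higher 280 times (77.8%) and lower 0 times, against 19.8% and 12.5%. No member at 48 h in those 8 contrasts had a negative change with an unadjusted limma p under 0.05. For monocrotaline the highest dose labelled at 24 h and at 48 h was 50 mg/kg, and at 6 h it was 300 mg/kg.

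**Figure D1:**
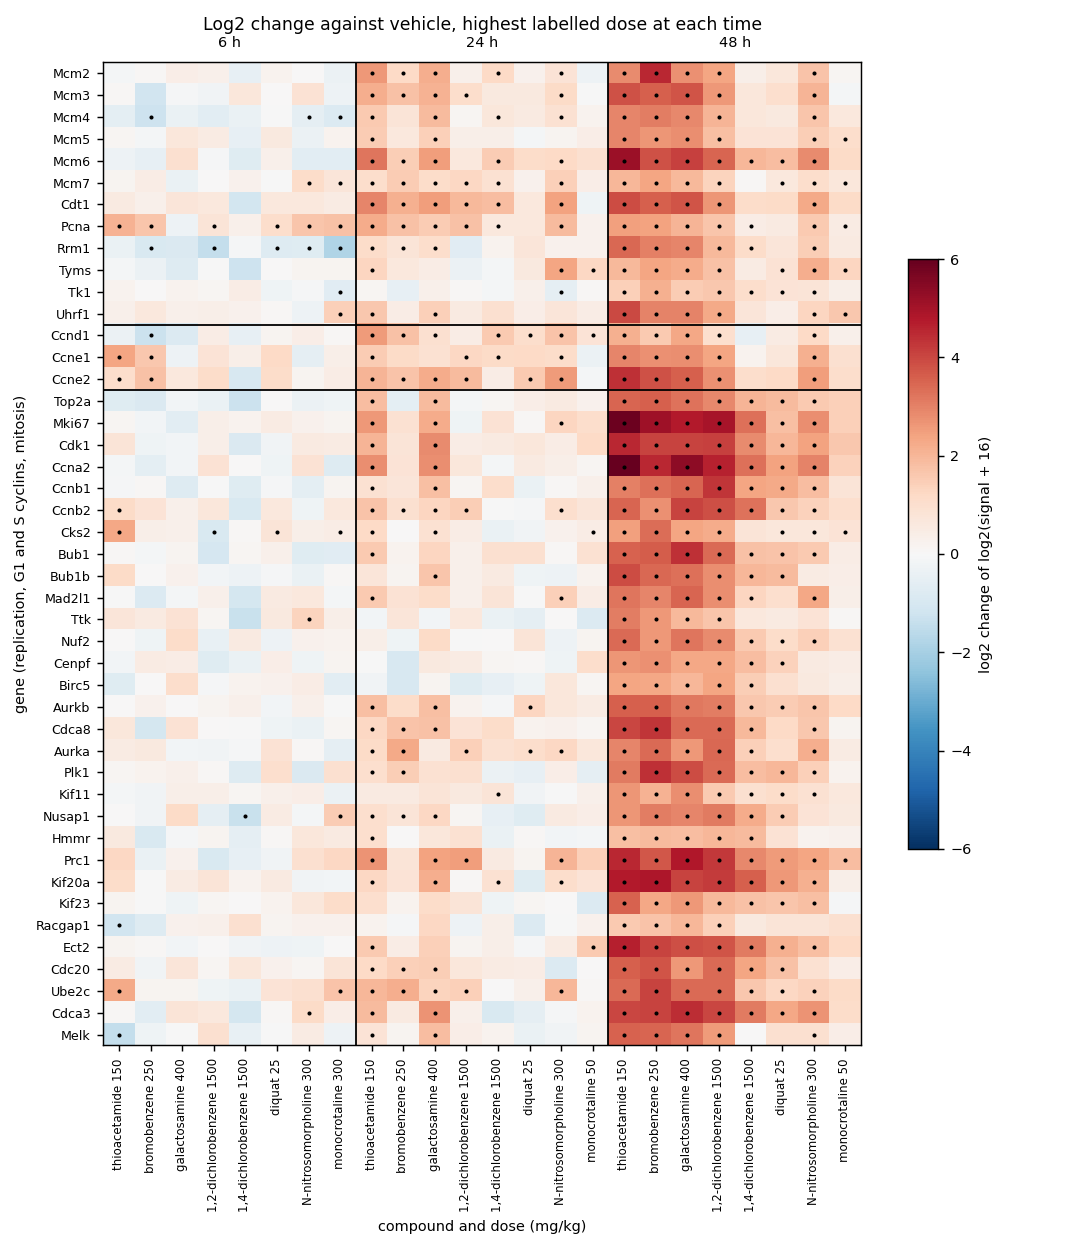
Log2 change against vehicle (colour) of the 45 measured members (rows, by list) in the highest dose group of each of the 8 compounds (columns) at 6, 24 and 48 h, with a dot where limma called the change. At 48 h thioacetamide, bromobenzene, galactosamine and 1,2-dichlorobenzene have a dot in all 45 rows, 1,4-dichlorobenzene in 30, and monocrotaline in 7.

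At 6 h few members moved. Pcna, the sliding clamp of DNA polymerase that also serves in repair, was called higher with 6 of 8 compounds. Its signals were 6226, 6151, 6480 and 6383 with 150 mg/kg thioacetamide against 1547 and 1400 in the vehicle rats, a change of 2.09 ± 0.14, or 4.25-fold. With 300 mg/kg monocrotaline Pcna gave 6034, 5637, 5234 and 4713 against 1629, 1490, 1565 and 1614, a 3.40-fold difference. The dosed rats lay clear of the vehicle rats in both. The thioacetamide vehicle and dosed arrays at 6 h were hybridised on different days, so day and dose cannot be told apart there. For thioacetamide, monocrotaline, bromobenzene and diquat no fit with the day as a fixed block could be had at 6 h. Pcna also rose with bromobenzene (1.67), N-nitrosomorpholine (1.66), diquat (1.07) and 1,2-dichlorobenzene (0.77). Galactosamine at 400 mg/kg gave Pcna signals of 854.2, 1293, 1326 and 1607 against 1578, 1300, 1709 and 1633 (change -0.32 ± 0.26, adjusted p = 0.504), and with 1,4-dichlorobenzene the change was 0.30 with an adjusted p of 0.0564.

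Thioacetamide at 150 mg/kg called 6 members higher and 2 lower at 6 h, where 9.43% of all genes were called higher and 11.6% lower. Ccne1 and Ccne2 encode the E cyclins that start S phase. Ccne1 gave 280.5, 240, 240.3 and 269.6 against 24.17 and 52.32, and rose by 2.38 ± 0.54. Cks2, a small subunit that binds cyclin-dependent kinases, gave 1388, 1875, 1291 and 1439 against 312 and 266.9, and rose by 2.30 ± 0.16. Ube2c, the ubiquitin-conjugating enzyme of the anaphase promoting complex, gave 197.4, 176.7, 167.3 and 235.4 against 26.09 and 29.85, and rose by 2.25 ± 0.35. All 4 dosed rats lay above both vehicle rats for these 3 genes, but the 2 groups were hybridised on different days. Ccne2 (1.07) and Ccnb2 (1.15) rose as well, while Racgap1 and Melk fell by 1.15 and 1.41. Leaving out each rat in turn gave 4 (without vehicle rat 2) to 8 higher calls and 0 (without vehicle rat 1) to 2 lower calls. Lower calls were also 0 with the day as a random block, with all arrays in 1 fit and in a fit of only 2 groups.

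Other compounds at 6 h gave shares of members near or under those of all genes. Monocrotaline at 300 mg/kg called 6 members higher and 3 lower, against 18.3% and 20.1% of all genes. The 6 were Pcna, Mcm7 (0.73), Uhrf1 (1.45), Cks2 (0.43), Nusap1 (1.51) and Ube2c (1.72). N-nitrosomorpholine at 300 mg/kg called 4 higher and 2 lower, against 18.2% and 19.1%, and with the day as a random or fixed block 2 higher and 0 lower. Mcm7, a subunit of the replicative helicase, was among the 4, with signals of 1543, 1184, 1261 and 727 against 479.2, 401.7, 613.1 and 601.5, a rise of 1.12 ± 0.14 in which the groups did not overlap. Bromobenzene at 250 mg/kg called 3 higher (Pcna, Ccne1 1.62, Ccne2 1.75) and 3 lower, against 7.35% and 8.63%. Diquat at 25 mg/kg called 2 higher (Pcna, Cks2 0.78) and 1 lower, against 10.3% and 16.1%. Dichlorobenzenes at 1500 mg/kg called 1 higher and 2 lower for the 1,2 isomer, against 5.90% and 7.36%, and 0 higher and 1 lower for the 1,4 isomer, against 4.45% and 5.32%. For the 1,4 isomer 11 members had an unadjusted p under 0.05, 8 of them lower, and the called gene was Nusap1 (-1.35). That call was lost with the day as a random block (adjusted p = 0.154) or a fixed block, with quantile normalization, with the mean of all probe sets and in a fit of only 2 groups, and leaving out 1 rat gave 0 (without dosed rat 1) to 5 (without dosed rat 3) lower calls. Galactosamine at 400 mg/kg called 0 members in either direction by limma, with 5 at an unadjusted p under 0.05, where 1.09% of all genes were called higher.

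Rrm1, the large subunit of ribonucleotide reductase, was the member most often called lower at 6 h. It fell with 5 of 8 compounds at the highest dose, namely monocrotaline (-1.79), 1,2-dichlorobenzene (-1.43), bromobenzene (-0.93), diquat (-0.76) and N-nitrosomorpholine (-0.73). Rrm1 signals were 110, 106.3, 28.13 and 50.64 with monocrotaline against 277.5, 249.8, 243 and 306.8. With 1,2-dichlorobenzene they were 141.6, 130.3, 75.4 and 9.88 against 208.6, 246.4, 176.5 and 236. Every dosed rat lay under every vehicle rat in both contrasts. Mcm4, another helicase subunit, fell with bromobenzene (-1.22), monocrotaline (-0.84) and N-nitrosomorpholine (-0.53). The calls with N-nitrosomorpholine were lost with the day as a random block (adjusted p = 0.103 for Rrm1 and 0.233 for Mcm4), as a fixed block, with all arrays in 1 fit and in a fit of only 2 groups. The fit of only 2 groups also lost the call of Rrm1 with 1,2-dichlorobenzene (adjusted p = 0.0928), bromobenzene (0.11) and diquat (0.256) and that of Mcm4 with bromobenzene (0.0626), and leaving out a rat could take the diquat call of Rrm1 away. Ccnd1, the D cyclin that answers to growth signals, gave 330.5, 402.2, 251.3 and 349.1 with bromobenzene against 1513, 450.8, 854.8 and 758.4, and fell by 1.27 ± 0.32 with no overlap. It rose by 1.52 ± 0.20 at the same time with 50 mg/kg monocrotaline, which was not the highest dose at 6 h. Among the 8 highest dose contrasts at 6 h Ccnd1 was called higher in 0, and its largest change was 0.43. Cks2 fell with 1,2-dichlorobenzene, from 734.8, 403.3, 577 and 680.3 to 313, 256.4, 281.4 and 352.2 (-0.93).

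**Figure D2:**
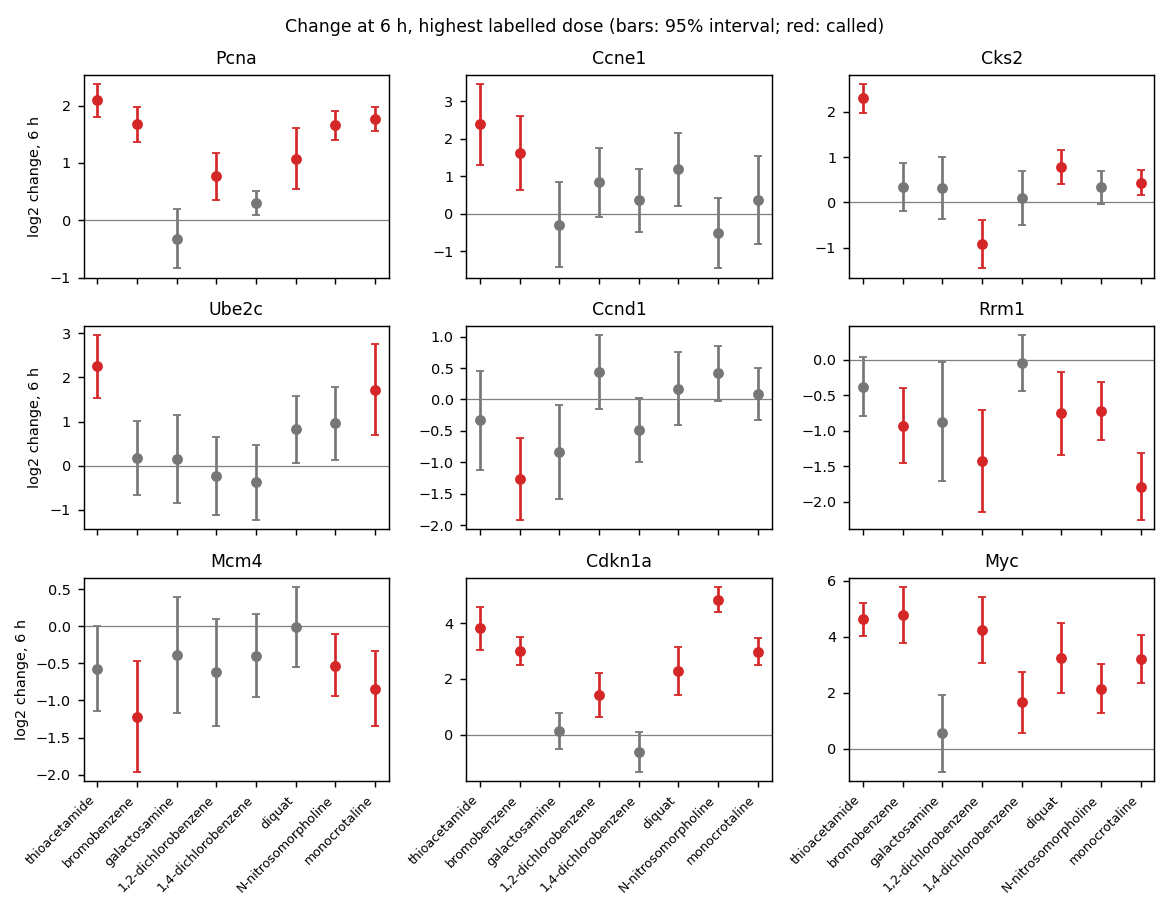
Log2 change against vehicle at 6 h with its 95% interval for 7 members (Pcna, Ccne1, Cks2, Ube2c, Ccnd1, Rrm1, Mcm4) and for Cdkn1a and Myc, in the highest dose group of each compound, with called changes in red. Pcna lies at 1.67 or less except with thioacetamide (2.09) and monocrotaline (1.76), and Rrm1 lies below 0 where it was called.

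With 150 mg/kg thioacetamide 36 of 45 members were called higher at 24 h and 0 lower, where 30.5% of all genes were called higher, and with 50 mg/kg 33 were, where 28.3% of all genes were. Mcm6 gave 694.8, 596.2, 794.2 and 699.5 against 172.2, 17.02, 38.66 and 83.61, a rise of 3.22 ± 0.42 with no overlap. Cdt1, which loads the helicase onto origins, rose by 2.92, and Ccna2, the A cyclin of S and G2, by 2.78. The median change was 1.60 over the 12 replication genes, 2.04 over the 3 G1 and S cyclins and 1.19 over the 30 mitosis genes. All 7 licensing and helicase genes were called higher, and neither kinetochore gene was. Ccnb1, the B cyclin that drives entry into mitosis, had only reached 203, 275.6, 118.6 and 158.8 against 94.86, 182.5, 42.72 and 80.11 (0.90 ± 0.37, adjusted p = 0.0357), and its groups overlapped. Ttk, a kinase of the spindle checkpoint, gave 2.448, 37.11, 13.13 and 5.176 against 14.06, 9.975, 2.568 and 49.51 and was not called. Vehicle and dosed arrays came from different hybridisation days, and with the day as a fixed block 16 members were called.

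Bromobenzene called more members at its middle dose than at its highest dose at 24 h. At 75 mg/kg 27 members rose, among them all 12 replication genes, against 10.4% of all genes, and at 250 mg/kg 16 rose, against 23.5%. Mcm6 gave 356.7, 425.6, 502.8 and 568.5 at 75 mg/kg and 187.4, 256.6, 104 and 331.2 at 250 mg/kg, against 95.09, 26.8, 72.4 and 79.09 with vehicle. Mcm6 was above every vehicle rat at both doses, by 2.57 ± 0.43 and by 1.46. Top2a, the topoisomerase that untangles sister chromatids, gave 169, 140.7, 124.1 and 71.48 at 75 mg/kg, 11.97, 19.94, 27.29 and 12.34 at 250 mg/kg and 12.09, 85.49, 48.05 and 18.25 with vehicle. It rose by 1.46 ± 0.43 at the middle dose and was -0.59 from vehicle, not called, at the highest. Of 45 members 7 were lower at 250 than at 75 mg/kg when the doses were tested against each other, a share near the 14.5% of all genes. The 7 were Top2a (-2.04 ± 0.43), Cdca3 (-1.69), Tk1 (-1.19), Mcm6 (-1.11), Birc5, Bub1 and Nuf2, and Pcna was higher (1.01). Necrosis was scored 4 in all 4 rats at 250 mg/kg and 2, 0, 1 and 1 at 75 mg/kg, and its part in the difference was not tested.

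Galactosamine at 400 mg/kg called 29 members higher at 24 h, against 21.4% of all genes, with medians of 1.49 for replication and 1.31 for mitosis. Its 4 rats fell into 3 high and 1 low. Cdk1, the kinase that drives mitosis, gave 347.2, 25.24, 422.7 and 339.4 against 11.46, 3.725, 9.382 and 52.1, a rise of 2.82 ± 0.67. Averaged over the 12 replication genes the rats lay 2.25, -0.42, 2.14 and 2.19 from the vehicle mean, and over the 30 mitosis genes 1.95, -0.08, 1.87 and 1.97. Necrosis was scored 3, 0, 3 and 2 in the same order, so the low rat was the rat with no necrosis. Without that rat 39 members were called, and without rat 1 the number was 19. A fit of this group and its vehicle group alone called 0, with the low rat kept in the spread. The arrays of these 2 groups shared no hybridisation day.

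1,2-Dichlorobenzene also gave more calls at its middle dose at 24 h, with 13 members higher at 150 mg/kg, against 13.9% of all genes, and 10 at 1500 mg/kg, against 22.3%. Ccnd1 gave 1569, 1178, 1508 and 1522 at 150 mg/kg and 881.7, 551.8, 1027 and 396.1 at 1500 mg/kg, against 511.4, 362.3, 728.1 and 417.1 with vehicle. It rose by 1.53 ± 0.29 at the middle dose, clear of every vehicle rat, and was 0.44 from vehicle at the highest (adjusted p = 0.233). The larger dose gave lower Mcm2 (-1.12), Mcm6, Rrm1, Tyms and Ccnd1 (-1.08) when the doses were compared, and higher Pcna and Ccnb2. The 5 lower members were a share under the 18.4% of all genes. Prc1, which bundles microtubules of the central spindle, had the largest change at 1500 mg/kg (2.51), followed by Cdt1 (1.95), Ccne2 (1.90) and Pcna (1.77).

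1,4-Dichlorobenzene at 1500 mg/kg called 10 members higher at 24 h, against 18.6% of all genes. They were Mcm2 (1.19), Mcm4 (0.70), Mcm6 (1.50), Mcm7 (0.92), Cdt1 (1.85), Pcna (0.65), Ccnd1 (1.56), Ccne1 (1.13), Kif11 (0.78) and Kif20a (0.91), so 8 of the 10 belonged to replication or to the G1 and S cyclins. Ccnd1 gave 1437, 902.9, 1572 and 1472 against 469.7, 708.2, 346.3 and 309.2, with no overlap. With the hybridisation day as a random block 5 members were called, with the day as a fixed block 1 was, and without dosed rat 3 6 were.

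N-nitrosomorpholine at 300 mg/kg called 18 members higher and 1 lower at 24 h, 8 of 12 replication genes, all 3 G1 and S cyclins and 7 of 30 mitosis genes among the higher, against 27.2% of all genes called higher, with medians of 1.03 for replication, 1.70 for the G1 and S cyclins and 0.30 for mitosis. Ccne2 gave 204.7, 202.6, 166.6 and 220.9 against 4.226, 45.49, 30.14 and 15.13, a rise of 2.55 ± 0.41 with no overlap. Cdt1 (2.42), Tyms, the enzyme that makes thymidylate (2.39), and Prc1 (2.03) followed. At 50 mg/kg 17 were called, against 19.6%. With the day as a random block the count at 300 mg/kg was 11, and as a fixed block 8.

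The monocrotaline group labelled 30 mg/kg at 24 h called 17 members higher and 1 lower, against 25.8% of all genes called higher, while the group labelled 50 mg/kg called 4 (Tyms 1.23, Ccnd1 0.81, Cks2 0.43 and Ect2 1.55), against 6.07%, or 2 without vehicle rat 2 and 1 with the day as a random block. Pcna gave 6296, 6236, 5690 and 6724 in the former and 2038, 1813, 1984 and 1665 in the latter, against 1644, 1449, 1534 and 1571 with vehicle. The group labelled 30 mg/kg was thus clear of both others, with a rise of 2.00 ± 0.10, against 0.27 (adjusted p = 0.0937) in the group labelled 50 mg/kg. Mcm6 gave 247.9, 249.7, 331.7 and 274.8 in the group labelled 30 mg/kg against 59.47, 9.974, 45.16 and 113.2, a rise of 2.21 ± 0.54. Necrosis was scored 4 in all 4 rats labelled 30 mg/kg and 0 or 1 in the 4 labelled 50 mg/kg, an order opposite to the labelled doses, and no label settles it. Compared directly, 10 members were lower in the group labelled 50 mg/kg, a share near the 23.7% of all genes. Replication genes made up 6 of them (Pcna -1.73 ± 0.10, Cdt1 -1.95).

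Tk1, thymidine kinase of the salvage pathway, was the lower member in both. It gave 260.4, 298.2, 220.9 and 253.9 in the monocrotaline group labelled 30 mg/kg against 468.4, 277.2, 378.4 and 489.5 (-0.59 ± 0.23, adjusted p = 0.0337). With N-nitrosomorpholine Tk1 gave 234.8, 232.7, 156.6 and 230.7 against 330.7, 395.1, 233 and 322.2 (-0.54 ± 0.21, adjusted p = 0.0292). The groups overlapped in both, and for N-nitrosomorpholine the call was lost with the day as a block.

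Diquat at 25 mg/kg called 4 members at 24 h (Ccnd1 1.07, Ccne2 1.56, Aurkb 1.27 and Aurka 1.07), against 12.0% of all genes. Ccne2 gave 19.81, 60.17, 120, 71.69, 71.26 and 131.1 against 8.135, 25.06, 13.84, 9.262, 28.52 and 3.007, so that 1 dosed rat lay within the vehicle range. With the day as a fixed block 0 members were called, and leaving out 1 rat gave 2 (without dosed rat 3) to 6 (without dosed rat 1). Across the 8 highest dose contrasts at 24 h, Ccnd1 was called higher in 7, Ccne2, Cdt1, Mcm7 and Pcna in 6, and Birc5, Cenpf, Kif23, Nuf2, Ttk, Racgap1 and Tk1 in 0.

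**Figure D3:**
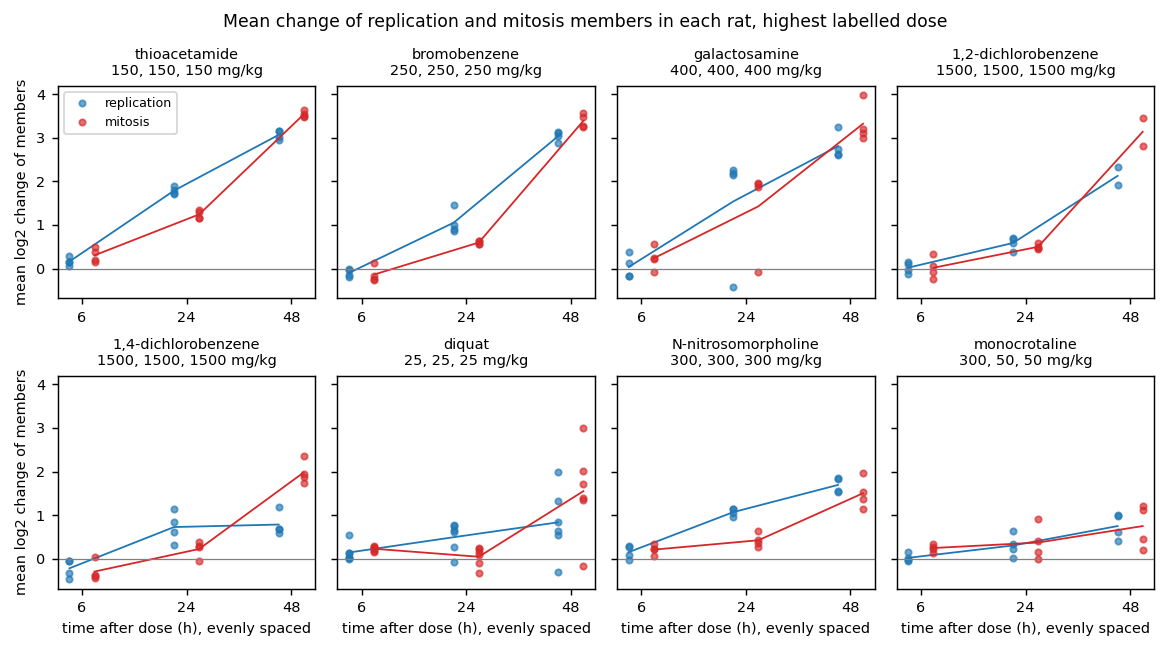
Mean log2 change of the 12 replication members and of the 30 mitosis members in each rat (points) at 6, 24 and 48 h. Rats are those of the highest dose group of each compound, and lines join the group means. In the group contrasts with bromobenzene the replication median goes from -0.07 through 0.99 to 2.99, and the mitosis median from -0.14 through 0.71 to 3.46.

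At 48 h thioacetamide, bromobenzene, galactosamine and 1,2-dichlorobenzene at the highest dose each called all 45 members higher. The shares of all genes called higher were 36.1%, 22.1%, 30.2% and 18.6% in that order. Median changes over the 30 mitosis genes were 3.51, 3.46, 3.27 and 3.25, and over the 12 replication genes 2.92, 2.99, 2.84 and 1.99. The median over all genes was 0.11 with thioacetamide, 0.14 with galactosamine and 0.11 with 1,2-dichlorobenzene. With bromobenzene and thioacetamide all 45 calls stayed whichever rat was left out. The 1,2-dichlorobenzene group had only 2 dosed rats, and 44 members were called without vehicle rat 2. Its mitosis median was 2.88 without dosed rat 2 and 3.57 without dosed rat 1.

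Cdk1 carried the pattern in every rat. With 150 mg/kg thioacetamide it gave 1400, 1568, 1586 and 1735 against 20.56, 59.57, 46.88 and 111, a rise of 4.53 ± 0.43 or 23.1-fold. With bromobenzene Cdk1 gave 3336, 3378, 2904 and 2987 against 171.4, 274.8, 129.4 and 149.2 (4.05 ± 0.44), and with galactosamine 1515, 3306, 1214 and 1333 against 101.2, 124.7, 76.6 and 52.98 (4.07 ± 0.67). The 2 rats given 1,2-dichlorobenzene gave 1133 and 1882 against 31.84, 63.61, 117.6 and 88.17 (4.11 ± 0.61). Vehicle and dosed rats were far apart in each. The changes of Cdk1 with these 4 compounds lay between 4.05 and 4.53, with standard errors of 0.43 to 0.67.

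The largest and smallest changes belonged to few genes. Ccna2 had the largest change with thioacetamide, with signals of 2122, 1814, 2291 and 2503 against 0.8993, 1.074, 0.984 and 17.02, or 6.77 ± 0.43. In 3 of the 4 vehicle rats its signal was near 1, so that the size of this change rests on the added 16. With galactosamine Ccna2 was again the largest, at 1176, 2522, 907.8 and 1292 against 34.57, 1.667, 65.19 and 2.031 (5.35 ± 0.69). Mki67, whose product Ki-67 coats mitotic chromosomes, led with bromobenzene, at 2232, 2159, 1906 and 2366 against 11.46, 131.3, 83.78 and 26.08 (5.08 ± 0.50), and with 1,2-dichlorobenzene, at 802.4 and 1120 against 0.739, 31.31, 43.31 and 4.538 (4.94 ± 0.63). The smallest called changes were Tk1 with thioacetamide, at 855.1, 997.1, 775.7 and 1182 against 334.7, 346.3, 353.8 and 340.5 (1.41 ± 0.25), and with galactosamine (1.54). Ccnd1 was the smallest with bromobenzene, at 4175, 2997, 2695 and 2875 against 792.6, 942.4, 1035 and 1559 (1.57), and with 1,2-dichlorobenzene, at 1678 and 2013 against 537.3, 943.4, 1231 and 1070 (1.01 ± 0.35). No dosed rat overlapped the vehicle rats for these genes.

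Members of each sublist rose at 48 h. With thioacetamide Mcm5 gave 1173, 1268, 1088 and 1301 against 129.6, 145.8, 176.7 and 135.6, a 7.54-fold rise (2.91 ± 0.25). Ccnb1 gave 803.7, 922.4, 1005 and 884.9 against 74.41, 147.8, 64.85 and 114.7 (3.04 ± 0.37), and Cdc20, the activator of the anaphase promoting complex, gave 772, 860.8, 714.3 and 732.8 against 48.9, 58.19, 59.75 and 36.64 (3.57 ± 0.28). Top2a gave 1488, 1349, 1386 and 1450 against 101.3, 122.4, 104.9 and 110.6 (3.51 ± 0.35). Ttk, not called at 24 h, reached 197.6, 208.8, 172.2 and 203.4 against 6.599, 5.813, 17.18 and 9.874 (3.05). Within the mitosis list the medians with thioacetamide were 4.51 for the 5 cytokinesis genes and 3.59 for the 3 chromosomal passenger genes. The median was 3.57 for Cdc20, Ube2c and Cdca3, which were grouped here under the anaphase promoting complex. It was 3.38 for the 4 spindle checkpoint genes and 2.67 for the 5 spindle genes. The 5 cytokinesis genes ran from 1.57 to 4.75 and the 7 licensing and helicase genes from 1.99 to 5.12. With bromobenzene the 7 licensing and helicase genes had a median of 3.57, as large as that of the 3 chromosomal passenger genes (3.58), and Mcm6 gave 2107, 2233, 1850 and 841.3 against 129, 83.12, 73.48 and 136.2 (3.81 ± 0.43).

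Thioacetamide at 50 mg/kg gave larger changes than 150 mg/kg at 48 h. It too called all 45 members, against 30.4% of all genes, with medians of 4.21 for mitosis and 3.15 for replication. Ccnb1 gave 2641, 2384, 2006 and 2411 at 50 mg/kg, above all 4 rats given 150 mg/kg. Tested against each other, 11 members were lower at 150 than at 50 mg/kg, 10 mitosis genes and Mcm7, against 13.4% of all genes. The 10 included Aurka (-1.44), Ccnb1 (-1.37 ± 0.37), Hmmr (-1.25), Cdc20 (-1.22) and Top2a (-1.08). With all arrays in 1 fit, or with the day as a fixed block, the count was 4. Necrosis was scored 0, 3, 2 and 0 at 50 mg/kg, while the mean change of the mitosis genes was 4.28, 4.33, 4.12 and 4.35 in the same rats, so the rats with no necrosis were as high as the others. Even 15 mg/kg called 15 members at 48 h, 13 of them mitosis genes, against 5.54% of all genes. There Mki67 gave 240.1, 285, 148.4 and 182.5 against 31.52, 49.64, 15.99 and 8.359 (2.50 ± 0.32).

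**Figure D4:**
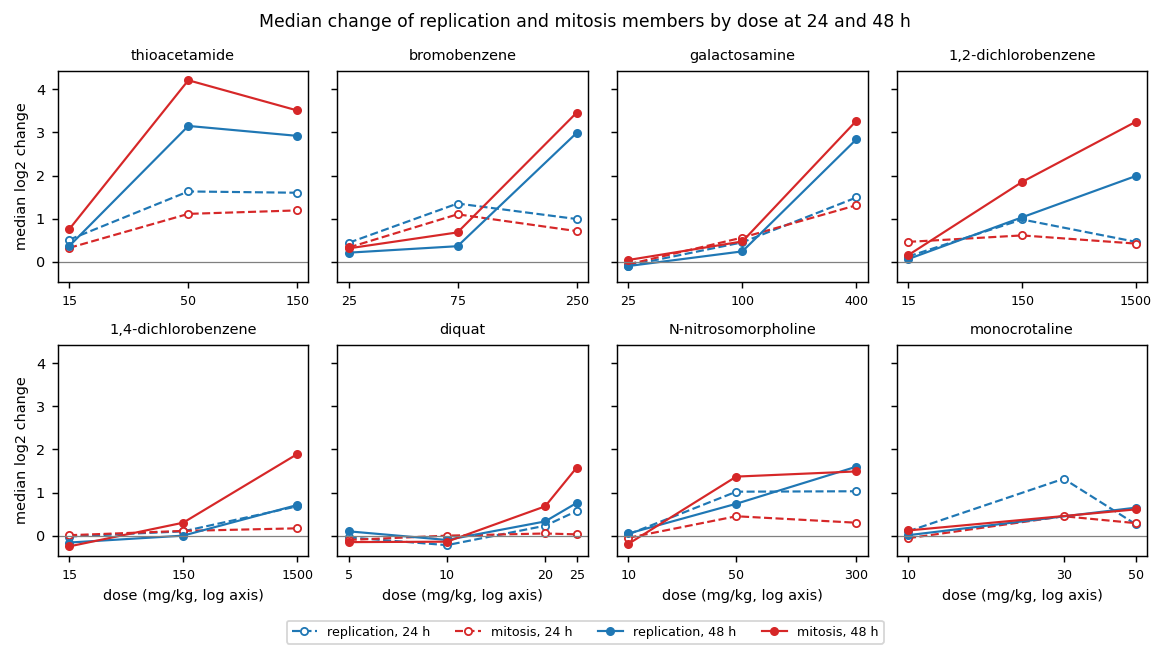
Median log2 change against vehicle of the 12 replication members and of the 30 mitosis members by labelled dose (mg/kg) at 24 h and 48 h, 1 panel a compound. With thioacetamide at 48 h the mitosis median is 0.75 at 15 mg/kg, 4.21 at 50 mg/kg and 3.51 at 150 mg/kg, while with galactosamine it is 0.47 at 100 mg/kg and 3.27 at 400 mg/kg.

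Bromobenzene and galactosamine had a sharp step between doses at 48 h. Bromobenzene at 75 mg/kg called 2 members (Mcm2 1.47 ± 0.35 and Cks2 1.01 ± 0.26), against 0.872% of all genes, with 13 at an unadjusted p under 0.05, although 27 had been called at that dose at 24 h. All 45 were higher at 250 than at 75 mg/kg, against 20.0% of all genes. Galactosamine at 100 mg/kg called 0 members by limma, with 7 at an unadjusted p under 0.05, and all 45 were higher at 400 than at 100 mg/kg, against 30.6%. The arrays of 400 mg/kg galactosamine at 48 h shared no day with their vehicle or 100 mg/kg arrays, and with the day as a fixed block 6 of the 45 differed between these doses. Against vehicle the fixed block left 11 calls and medians of 2.35 for mitosis and 1.17 for replication, estimated through other groups of those days. Bromobenzene and thioacetamide kept 43 of 45 calls under that block.

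1,4-Dichlorobenzene at 1500 mg/kg called 30 members higher at 48 h, against 10.6% of all genes, and 26 of these were mitosis genes. Its median change was 1.89 over mitosis, 0.71 over replication and 0.23 over the G1 and S cyclins. Kif20a, a kinesin of the central spindle, had the largest change, at 379.9, 403.2, 224.7 and 335.1 against 13.33, 8.526, 14.59 and 16.14 (3.57 ± 0.34). Cdk1 gave 467.4, 626.8, 433 and 576.2 against 84.96, 66.2, 21.33 and 90.37 (2.82), and Cdc20 633.6, 753.8, 376.8 and 543.5 against 55.45, 103.8, 102.3 and 136.2 (2.37 ± 0.44). These mitosis genes were clear of vehicle in all 4 rats. Mcm5 gave 273.4, 258.7, 166.3 and 248.5 against 117.5, 100.6, 140.1 and 155.9 (0.80 ± 0.31, adjusted p = 0.0637), also without overlap but not called, and Mcm2 gave 262.7, 368.6, 153.3 and 192.4 against 171.1, 197.9, 124 and 243.1 (0.35). Ccnd1, raised at 24 h, gave 593.7, 667.5, 437.5 and 520.2 against 795.8, 719.7, 932.8 and 640.7 (-0.47 ± 0.26, adjusted p = 0.215). The smallest called change was that of Pcna, at 1987, 3183, 2447 and 2088 against 1740, 1874, 1540 and 1898 (0.44 ± 0.10). All 4 rats were scored 0 for necrosis. With the day as a fixed block 11 members were called. At 150 mg/kg 0 members were called by limma and 2 had an unadjusted p under 0.05.

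Diquat at 25 mg/kg called 26 members higher at 48 h, 22 of them mitosis genes and 4 replication genes, against 5.49% of all genes. Kif20a had the largest change, at 307, 666.5, 192.2, 164.7, 352.5 and 12.91 against 140.7, 3.801, 9.387, 15.04, 14.15 and 7.829 (2.60 ± 0.48). Its groups overlapped through rat 6 of the dosed group and rat 1 of the vehicle group. The mean change of the mitosis genes was 1.71, 2.99, 1.35, 1.40, 2.01 and -0.16 in the 6 dosed rats, which were scored 1, 1, 1, 1, 1 and 0 for necrosis, and 0.75 in vehicle rat 1, which was scored 2. Ccnb1 gave 351.5, 1101, 216.5, 232.4, 507.6 and 57.92 against 178.9, 4.956, 89.99, 3.154, 80 and 68.82 (2.29 ± 0.53, adjusted p = 0.00268). The smallest called change was that of Mcm7, at 762.1, 1893, 631.4, 769.1, 1005 and 599.6 against 521.6, 587.5, 518.9, 524.9, 552.4 and 599.5 (0.64). Without rat 2 of the dosed group 13 members were called, and without rat 6 38 were. The vehicle and dosed arrays share no hybridisation day and no fit with the day as a fixed block could be had, so day and dose cannot be told apart here. At 20 mg/kg 0 members were called by limma and 10 had an unadjusted p under 0.05, while the mean change of the mitosis genes was 1.38 and 2.71 in rats 3 and 5 and between -0.57 and 0.65 in the other 4.

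**Figure D5:**
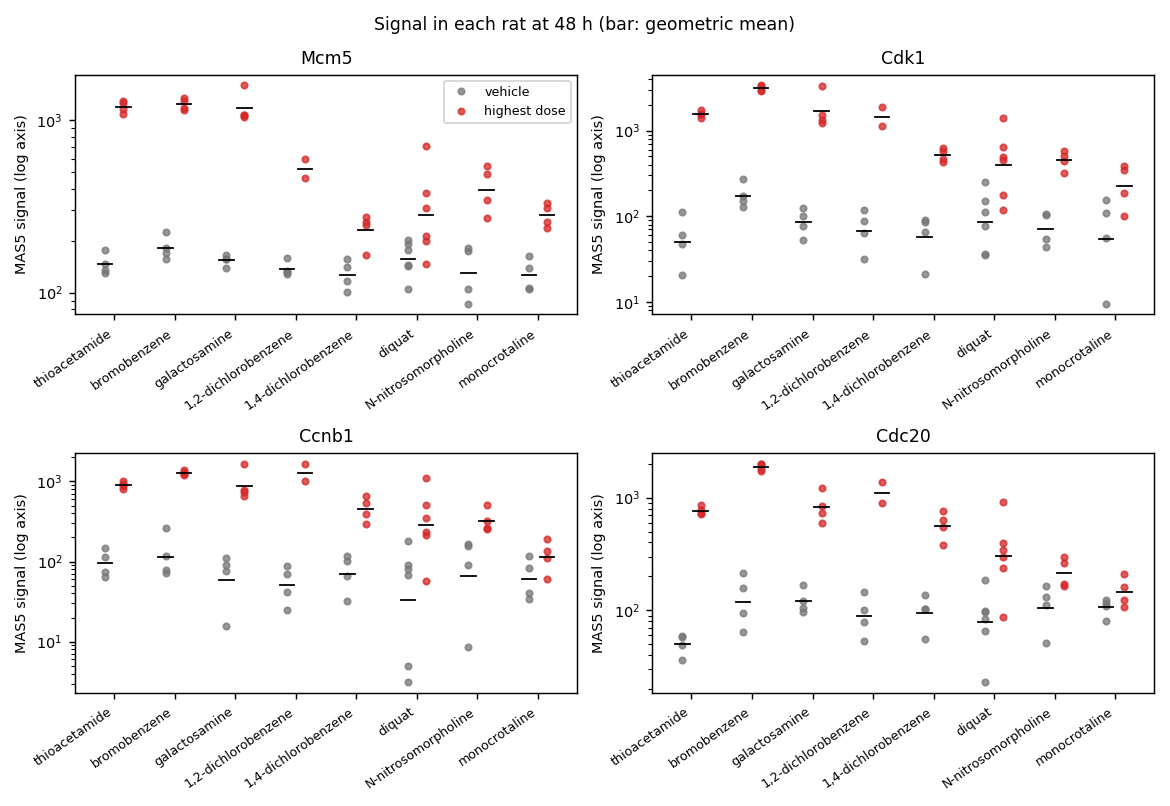
MAS5 signal (log axis) of Mcm5, Cdk1, Ccnb1 and Cdc20 in each rat (points) of the highest dose and vehicle groups at 48 h, by compound, with bars at the geometric means. In mean change over the 30 mitosis members, which is not drawn, dosed diquat rats range from -0.16 to 2.99 and dosed thioacetamide rats from 3.48 to 3.63.

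N-nitrosomorpholine at 300 mg/kg called 37 members higher at 48 h, all 12 replication genes, all 3 G1 and S cyclins and 22 of 30 mitosis genes, against 30.1% of all genes. Its medians were 1.60 for replication and 1.49 for mitosis. Ccna2 had the largest change, at 150.8, 410.6, 603 and 235.9 against 3.456, 60.67, 10.67 and 57.37 (2.97 ± 0.44). Mcm6 gave 596.3, 630, 623.5 and 463.7 against 12.19, 137, 46.73 and 160.8 (2.83), and Cdk1 319.8, 507, 583.8 and 446.6 against 54.47, 104.6, 43.2 and 107.3 (2.40 ± 0.50). Dosed rats were higher than vehicle rats throughout for these 3 genes. The 8 members that were not called were all mitosis genes, Bub1b, Ttk, Cenpf, Birc5, Nusap1, Hmmr, Racgap1 and Cdc20, with changes between 0.22 and 0.92. Cdc20 gave 163.6, 260.6, 295.7 and 172.6 against 50.85, 130.6, 111 and 165.1 (0.92 ± 0.49, adjusted p = 0.119). Hmmr, a spindle protein, gave 115.2, 105.5, 202.4 and 95.34 against 72.9, 95.2, 193 and 86.4 and overlapped the vehicle rats. The smallest called change was that of Cks2, at 1110, 1152, 1302 and 1331 against 679.4, 894.8, 687.3 and 790.8 (0.67).

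N-nitrosomorpholine at 50 mg/kg called 32 members at 48 h, against 10.4% of all genes, with medians of 1.37 for mitosis and 0.74 for replication. Cdc20 gave 432.5, 374.4, 397.3 and 247.5 at 50 mg/kg (1.60 ± 0.49, adjusted p = 0.0176). Of 45 members 10 were higher at 300 than at 50 mg/kg, 7 replication genes with Ccne1, Mad2l1 and Aurkb, a share under the 25.4% of all genes, and 0 were lower. The count of 10 was 3 after centring the arrays on their medians and 4 with all arrays in 1 fit or with the day as a fixed block.

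Monocrotaline at 50 mg/kg called 7 members higher at 48 h, 5 of them replication genes, against 5.11% of all genes, with 21 at an unadjusted p under 0.05. Uhrf1, which keeps DNA methylation through replication, gave 131.9, 100.4, 77.78 and 115.1 against 17.81, 77.21, 27.09 and 2.606 (1.60 ± 0.44). Tyms gave 293.5, 312.9, 160.4 and 245 against 76.52, 58.59, 116.2 and 120.7 (1.31 ± 0.31), and Prc1 161.9, 351.4, 104 and 140.8 against 30.58, 9.375, 82.18 and 43 (1.87 ± 0.52). The groups did not overlap for these 3 genes. Mcm5 (1.07), Mcm7 (0.67), Pcna (0.49) and Cks2 (0.84) were the others. Cdk1 gave 388.5, 350.8, 101 and 187.5 against 108.1, 9.542, 153.3 and 55.44 (1.63 ± 0.64, adjusted p = 0.11), with overlap. Leaving out 1 rat gave from 4 calls (without vehicle rat 4) to 11 (without dosed rat 3).

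1,2-Dichlorobenzene at 150 mg/kg called 24 members at 48 h, 19 of them mitosis genes, against 1.29% of all genes, and 43 had an unadjusted p under 0.05. Vehicle and 150 mg/kg arrays shared 1 hybridisation day. Mki67 gave 618, 59.1, 885.7 and 195.7 against 0.739, 31.31, 43.31 and 4.538 (3.30 ± 0.52). The mean change of the mitosis genes was 2.49, 0.32, 2.89 and 1.41 in the 4 rats, scored 2, 0, 2 and 2 for necrosis. At 1500 mg/kg 14 members were higher than at 150 mg/kg, 13 of them mitosis genes, against 13.9% of all genes. That count was 8 after centring and 1 with the day as a fixed block.

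Members' changes were also compared between 24 h and 48 h, with 30 mitosis and 12 replication genes tested in each compound. The change from vehicle was larger at 48 h for 38 of 45 members with 250 mg/kg bromobenzene (27 mitosis and 11 replication genes), against 11.2% of all genes, and for 38 with 150 mg/kg thioacetamide (29 and 8), against 13.5%. 1,2-Dichlorobenzene had 27 (21 and 6), against 9.08%, 1,4-dichlorobenzene 22 (20 and 2), against 9.90%, galactosamine 14 (11 and 3), against 8.16%, diquat 9 (all mitosis genes), against 2.53%, and N-nitrosomorpholine 8 (4 and 4), against 12.1%. Monocrotaline at 50 mg/kg had 0 by limma, with 1 at an unadjusted p under 0.05, against 2.24%. Cdk1 gained 3.66 with 1,2-dichlorobenzene, 3.27 with bromobenzene, 2.47 with thioacetamide, 2.29 with 1,4-dichlorobenzene and 1.95 ± 0.71 with N-nitrosomorpholine. With 1,4-dichlorobenzene 2 members had a smaller change at 48 h, Ccnd1 (-2.03 ± 0.36) and Mcm7 (-0.84). With the day as a fixed block the counts were 16 for 1,2-dichlorobenzene, 1 for 1,4-dichlorobenzene (in either direction), 2 for N-nitrosomorpholine and 0 for galactosamine, and with all arrays in 1 fit they were 15 for 1,4-dichlorobenzene and 25 for galactosamine.

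The dichlorobenzene isomers differ in where the second chlorine sits on the ring, adjacent to the first or opposite it. Their changes from vehicle were compared at matched doses and times in 9 pairs, with p-values adjusted both within each pair and over the genes of all 9 pairs. At 1500 mg/kg and 48 h, with 2 rats for the 1,2 isomer, 10 members had a larger change with the 1,2 isomer, against 11.5% of all genes, and 9 did over all 9 pairs. They were Mcm2, Mcm3, Mcm4, Mcm7, Pcna, Ccnd1, Ccne1, Cks2, Aurka and Melk. Mcm2 gave 630.7 and 937.8 with the 1,2 isomer against 106.4, 193.9, 190.4 and 87.55, and by limma the isomers differed by 2.01 ± 0.48 (adjusted p = 0.0027 over the 9 pairs). Melk, a kinase of dividing cells, gave 248.6 and 336.9 with the 1,2 isomer and 59.75, 63.63, 49.77 and 53.9 with the 1,4 isomer, a difference in change of 2.55 ± 0.69. Ccnd1 differed by 1.48 ± 0.44. For the mitosis genes Cdk1, Top2a and Cdc20 the differences were 1.29, 0.84 and 1.04, and their 95% intervals ran from -0.33 to 2.91, from -0.61 to 2.29 and from -0.47 to 2.55, so neither equality nor a large difference can be set aside. Mcm5 differed by 1.02, with an interval from -0.02 to 2.07.

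At 150 mg/kg the isomers differed at 24 h in 6 members, all larger with the 1,2 isomer (Mcm3 1.95, Mcm6 1.72, Ccnd1 1.72 ± 0.40, Mcm2 1.55, Pcna 0.75 and Mcm7 0.67), against 8.65% of all genes. Adjusted over the 9 pairs, 4 members differed there. At 48 h Mki67 (2.64 ± 0.63) and Top2a (2.48 ± 0.65) differed, against 0.619% of all genes, and over the 9 pairs 10 members did. Mki67 with 150 mg/kg of the 1,4 isomer was 41.65, 46.39, 46.52 and 46.08 against 5.838, 27.11, 35.21 and 30.22. The other pairs gave 4 members at 150 mg/kg and 6 h, with Mcm3 lower (-2.28) and Pcna (1.20), Ccne2 (2.19) and Ccnb2 (1.62) higher with the 1,2 isomer, Rrm1 lower (-1.37) at 1500 mg/kg and 6 h, and Pcna (1.12) and Ccnb2 (1.50) higher and Ccnd1 (-1.12) lower at 1500 mg/kg and 24 h. Adjusted over the 9 pairs, 3 members were higher and 1 lower at 150 mg/kg and 6 h. At 1500 mg/kg 1 was higher and 1 lower at 6 h, and 1 higher and 0 lower at 24 h. At 15 mg/kg 0 members differed at any time by limma within the pair, with 10, 3 and 0 at an unadjusted p under 0.05 at 6, 24 and 48 h, and over the 9 pairs 2 did at 6 h. Arrays of the isomers came from different hybridisation days. With the day as a fixed block 0 members differed at 1500 mg/kg and 48 h or at 150 mg/kg and 24 h or 48 h. These calls thus did not hold with the day in the fit. That fit is estimated through other groups of those days, and 0 calls in it do not show that the isomers gave equal changes.

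Regulators of the cycle were measured beside the members. Cdkn1a was called higher at 6 h with 6 of 8 compounds at the highest dose, and not with galactosamine (0.13) or 1,4-dichlorobenzene (-0.60). With N-nitrosomorpholine Cdkn1a gave 13900, 14830, 13820 and 8469 at 6 h against 299.4, 381.8, 541.1 and 493.5 (4.84). At 48 h it still gave 13800, 10060, 11440 and 12310 against 671.3, 1014, 1070 and 613.4 (3.83 ± 0.22, 14.2-fold). Thioacetamide, with all 45 members called, had Cdkn1a at 7377, 6675, 5223 and 4099 at 48 h against 658.7, 945.1, 993.3 and 641.8 (2.82 ± 0.31), and monocrotaline, with 7 members called, at 5211, 4167, 4585 and 5447 against 841.6, 863.2, 1040 and 831.2 (2.42). High Cdkn1a was found with many and with few called members, and its part in the number of calls was not tested. 1,4-Dichlorobenzene, with 30 members called at 48 h, had Cdkn1a at 705.1, 833.1, 599.8 and 589.6 against 964, 739.2, 985.1 and 982.4 (-0.42, not called). Galactosamine raised Cdkn1a by 2.15 at 48 h and bromobenzene by 1.12, while 1,2-dichlorobenzene (1.08) and diquat (0.68) were not called.

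Myc, a transcription factor of growth, rose at 6 h with 7 of 8 compounds, most with bromobenzene (4.78) and thioacetamide, at 3571, 3738, 3565 and 3090 against 132.6 and 120.6 (4.62 ± 0.29), and not with galactosamine (0.56). E2f1, an activator of S phase genes, rose at 48 h with 1,2-dichlorobenzene (2.88), bromobenzene (2.56), thioacetamide (2.56 ± 0.47), galactosamine (1.78), N-nitrosomorpholine (1.66) and diquat (1.57), and not with 1,4-dichlorobenzene (0.83) or monocrotaline (0.17). E2f1 with thioacetamide gave 263.3, 364.4, 397.1 and 316.6 against 13.04, 84.89, 47.8 and 48.74, with no overlap. Foxm1, the activator of mitosis genes, rose with galactosamine (2.59), bromobenzene (2.13 ± 0.56), thioacetamide (2.11), 1,2-dichlorobenzene (2.00) and diquat (1.55). For Foxm1 N-nitrosomorpholine (0.98, adjusted p = 0.0856), 1,4-dichlorobenzene (0.93, adjusted p = 0.215) and monocrotaline (0.69) did not pass the test.

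With N-nitrosomorpholine other p53-linked genes were among the most changed of these lists. Gtse1, which binds p53 and microtubules in G2, rose by 5.10 ± 0.36 at 24 h, from a vehicle range of 8.314 to 37.51 to a dosed range of 1191 to 1453, and by 4.03 at 48 h. Ccng1, a p53 target, gave 13500, 10680, 11680 and 13600 at 48 h against 775.6, 1071, 1198 and 602.3 (3.78 ± 0.15). Mybl2, the B-Myb subunit that joins MuvB, gave 361.7, 349.1, 458.8 and 394.9 at 24 h against 23.44, 20.74, 93.67 and 77.23 (2.71 ± 0.32), and so rose before most mitosis members. Ccng1 rose as well with thioacetamide (2.27), galactosamine (2.06), monocrotaline (2.05) and bromobenzene (1.66) at 48 h.

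Genes of the same processes outside the members were counted at 48 h. Of 32 other replication genes 30 were called higher with thioacetamide, 30 with bromobenzene, 25 with galactosamine, 21 with 1,2-dichlorobenzene, 20 with N-nitrosomorpholine, 12 with 1,4-dichlorobenzene, 6 with monocrotaline and 2 with diquat, and 0 were called lower. Of 36 other mitosis genes 34, 33, 35, 29, 28, 23, 7 and 18 were called higher in the same order. The shares of all genes called higher were 36.1%, 22.1%, 30.2%, 18.6%, 30.1%, 10.6%, 5.11% and 5.49% in that order. The 2 other replication genes with diquat were thus a share near that of all genes. Chaf1a, a subunit of the assembly factor that puts histones on new DNA, rose by 3.79 with bromobenzene, 3.54 with galactosamine and 3.16 with 1,2-dichlorobenzene. Stmn1, which destabilises microtubules, rose by 3.62 with thioacetamide, 3.48 with bromobenzene, 1.78 with 1,4-dichlorobenzene, 1.69 with diquat and 1.07 with monocrotaline. With 1,4-dichlorobenzene Cdkn3, a phosphatase of cyclin-dependent kinases, had the smallest adjusted p of the other mitosis genes, with a rise of 3.98 ± 0.42 from a vehicle range of 10.1 to 31.38 to a dosed range of 400.9 to 574.

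Markers of other liver cells moved in the same groups. Of 10 hepatocyte markers all 10 were called lower at 48 h with thioacetamide, bromobenzene and galactosamine, 7 with N-nitrosomorpholine, 6 with 1,4-dichlorobenzene, 5 with 1,2-dichlorobenzene and 0 with diquat and monocrotaline. Pooled over these 8 contrasts, 12.5% of all tests of genes were called lower. That share is not split by compound here, so it is not the background of any single contrast. The summed signal of the hepatocyte markers was 415400 to 459500 in the thioacetamide vehicle rats and 186000 to 204400 in the dosed rats. Of 10 macrophage markers 9 were higher with thioacetamide and with diquat, 8 with galactosamine, 7 with N-nitrosomorpholine and 5 with bromobenzene, while 8 were lower with 1,4-dichlorobenzene. The shares of all genes called higher were 36.1% with thioacetamide, 5.49% with diquat, 30.2% with galactosamine, 30.1% with N-nitrosomorpholine and 22.1% with bromobenzene. The summed macrophage signal went from 17570-21230 to 99340-109100 with thioacetamide, from 17820-21620 to 97130-104700 with N-nitrosomorpholine and from 21690-24700 to 11180-24860 with 1,4-dichlorobenzene. With 1,4-dichlorobenzene 6 of 12 stellate cell and matrix markers were lower (summed 8031-11550 to 5719-7037), and of 12 lymphocyte markers 0 were called higher and 1 lower (summed 1375-1587 to 965.6-1555). Of 12 stellate cell and matrix markers 12 were higher with thioacetamide and with galactosamine. Of 12 lymphocyte markers 4 were higher with thioacetamide, a share near the 36.1% of all genes. The summed signal of the 12 went from 1166-1353 to 4186-4703. Neutrophil markers were highest with N-nitrosomorpholine, where 8 of 10 were called and the summed signal went from 343.5-754.1 to 40550-50490, and summed erythroid markers went from 8952-12990 to 39310-44850. The part of these cells in the members' changes was not tested.

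Vehicle rats were compared between times too. Apart from thioacetamide, where all vehicle arrays shared 1 day, and from 24 h and 48 h with bromobenzene and monocrotaline, vehicle arrays of different times were mostly hybridised on different days, and the part of the day in these differences was not tested. Over the vehicle groups of all 8 compounds, with the compound but not the day in the fit, 5 members were higher at 24 h than at 6 h (Cks2 0.95 ± 0.10, Tk1 0.37, Mcm2 0.37, Mcm5 0.29, Tyms 0.29), against 14.6% of all genes, and Ccnd1 (-0.39) and Mcm4 (-0.22) were lower. At 48 h 12 members were higher than at 24 h, against 8.50% of all genes, 11 of them mitosis genes, with Cdk1 at 1.25 ± 0.17, Ube2c at 0.86, Top2a at 0.84 and Cdca3 at 0.64, and Ccnd1 was higher by 0.79. Tyms (-0.35) and Cks2 (-0.27) were lower. Each dosed group above was set against vehicle rats of its own time.

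Within groups that held rats with and without necrosis, rats with necrosis had higher members. Over 28 such groups, with 136 rats of which 63 had a score above 0, 29 of 45 members were higher in necrotic rats of the same group and 0 lower, against 16.6% of all genes called higher. They were 9 replication genes, all 3 G1 and S cyclins and 17 mitosis genes, led by Prc1 (0.90 ± 0.15), Ccna2 (0.72), Cdt1 (0.71) and Mki67 (0.68). In the same comparison 7 of 10 macrophage markers were higher (Gpnmb 1.24, Lgals3 1.09), as were 6 of 10 neutrophil markers (Fcnb 1.31), 6 of 12 stellate cell and matrix markers, with 1 lower, and 3 of 12 lymphocyte markers, while 5 of 10 hepatocyte markers were lower. Of the cholangiocyte and progenitor markers Spp1 (1.72) and Epcam (0.25) were higher, and Krt19, Krt7, Cftr and Prom1 were not called. Of the sinusoidal endothelium markers Fcgr2b (0.28) was higher and Kdr (-0.22) and Stab1 (-0.21) lower. Among erythroid markers Slc4a1 (-0.21) was lower. The part of these cells in the members' differences was not tested. These are differences between rats of 1 dose and time, and the scores and the arrays come from the same animals.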

How the data were processed

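The deposited table holds log2 MAS5 signals, 1 column per array. Per the labels the authors had scaled every array to a 2% trimmed mean of 500, and the version of MAS5 was not given. The table held 31099 probe sets, of which 57 were controls, 20826 had 1 symbol, 436 several and 9780 none. Symbols came from the platform annotation. Of several probe sets of a gene (13 measured members had several) the one with the highest mean was kept, and values became log2(signal + 16). The share of probe sets under 16 was 4.2% to 18.2% per array (median 14.8%), array medians ran from 6.53 to 7.78 on the log2 scale, and the number of arrays limits the precision. No column was left unmapped.

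Linear models (R 4.3.3, limma 3.58.1, eBayes with trend) were fitted for each compound over 98 groups in all, 74 of them dosed, and p-values were adjusted by Benjamini-Hochberg over 14217 genes, with 0.05 as the limit. Arrays were hybridised on 39 days. The scripts were tested on simulated data. Alternatives were the added constant (1 or 64), centring, quantile normalization, a filter on dim genes, the mean of all probe sets, all arrays or only 2 groups in a fit, the hybridisation day as a block or within a day, and leaving out each rat. Members and lists were chosen with earlier results of these data known. Signals of single rats are given for Mcm5, Ccnd1, Cdk1, Ccnb1, Top2a and Cdc20, for the largest and smallest called changes, and for members a comparison turns on, which were chosen after their values were seen. Of other lists up to 3 called genes with the smallest adjusted p were named, and Cdkn1a, Myc, Foxm1 and E2f1 always.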

Additional observations from a re-analysis of the deposited data

Results flagged for a closer look

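Some rats lay far from the rest of their group in the mean change of the replication or mitosis members. Of 96 combinations of group and list examined 10 had such a rat, and chance alone gives about 1 in 20. Rat 2 given 400 mg/kg galactosamine for 24 h lay at -0.42 over the replication members (the others at 2.14 to 2.25) and at -0.08 over the mitosis members (the others at 1.87 to 1.97), with a necrosis score of 0. Rat 6 given 25 mg/kg diquat for 6 h lay at 0.54 over replication (the others at -0.01 to 0.14), with a score of 4. Rat 3 given 1500 mg/kg 1,4-dichlorobenzene for 6 h lay at 0.03 over mitosis (the others at -0.44 to -0.36). The other 6 were vehicle rats. Over replication these were rat 2 of the bromobenzene group at 24 h (0.16) and rat 4 of the monocrotaline group at 48 h (-0.21). Over mitosis they were rat 4 of the galactosamine group at 6 h (0.21), rat 6 of the diquat group at 6 h (0.65), rat 1 of the bromobenzene group at 24 h (-0.25) and rat 2 of the monocrotaline group at 24 h (-0.33).

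The change from vehicle differed between 48 h and 24 h, by limma's test of the difference, for 38 members with bromobenzene, 38 with thioacetamide, 27 with 1,2-dichlorobenzene, 24 with 1,4-dichlorobenzene, 14 with galactosamine, 9 with diquat and 8 with N-nitrosomorpholine, counted in either direction. Between the dichlorobenzene isomers, with p-values adjusted within each pair, it differed for 10 members at 1500 mg/kg and 48 h, 2 at 150 mg/kg and 48 h, 6 at 150 mg/kg and 24 h, 3 at 1500 mg/kg and 24 h, 4 at 150 mg/kg and 6 h and 1 at 1500 mg/kg and 6 h.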

How the results depend on the processing

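No paired analysis was possible because the labels number no replicates across groups and rats were numbered in accession order only. Medians at 24 h and 48 h kept their direction under each alternative run, except that of mitosis with diquat at 24 h (0.03), which went as low as -0.08. The values below are medians of the log2 change over the replication or mitosis members at the highest dose that moved by more than the spread between rats, with the main value in brackets. The cause of these shifts was not tested, beyond that an added 64 shrinks and an added 1 widens the change of dim genes.

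With 64 added, replication was 0.28 (0.46) with 1,2-dichlorobenzene at 24 h and 1.71 (1.99) at 48 h, 0.53 (0.71) with 1,4-dichlorobenzene at 48 h, 2.56 (2.99) with bromobenzene at 48 h, 0.76 (1.03) with N-nitrosomorpholine at 24 h, 1.30 (1.60) and 2.59 (2.92) with thioacetamide at 24 h and 48 h, and 2.47 (2.84) with galactosamine at 48 h. Mitosis was 0.21 (0.42) and 2.43 (3.25) with 1,2-dichlorobenzene, 1.25 (1.89) with 1,4-dichlorobenzene at 48 h, 0.33 (0.71) and 2.88 (3.46) with bromobenzene, 0.81 (1.19) and 2.73 (3.51) with thioacetamide, and 2.72 (3.27) with galactosamine at 48 h. With 1 added, mitosis was 0.59 with 1,2-dichlorobenzene at 24 h, 2.27 with 1,4-dichlorobenzene at 48 h, 0.89 and 3.84 with bromobenzene and 1.37 and 3.78 with thioacetamide, and replication was 1.30 with N-nitrosomorpholine at 24 h.

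With arrays centred on their medians, replication was 1.74 with 1,2-dichlorobenzene at 48 h, 2.64 with bromobenzene at 48 h, 0.88 and 1.31 (1.60) with N-nitrosomorpholine, 1.33 and 2.46 with thioacetamide and 2.37 with galactosamine at 48 h. Mitosis was 0.46 and 3.11 with bromobenzene and 0.92 and 3.05 with thioacetamide. Quantile normalization gave replication at 1.82 with 1,2-dichlorobenzene at 48 h, -0.05 (-0.23) with 1,4-dichlorobenzene at 6 h and 0.87 with N-nitrosomorpholine at 24 h, and mitosis at 0.49 with bromobenzene at 24 h and 3.32 with thioacetamide at 48 h.

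With the hybridisation day as a fixed block, replication was 3.18 with bromobenzene at 48 h, 0.05 (0.26) with monocrotaline at 24 h, 0.89 with N-nitrosomorpholine at 24 h, 2.02 with thioacetamide at 24 h, 1.17 with galactosamine at 48 h and 0.02 (0.57) with diquat at 24 h. Mitosis was 0.53 (0.30) with N-nitrosomorpholine at 24 h, 0.80 and 2.98 with thioacetamide and 2.35 with galactosamine at 48 h. That fit could not be had for diquat at 6 h and 48 h or for bromobenzene, monocrotaline and thioacetamide at 6 h. As a random block (correlation 0.088) the day gave 3.32 for mitosis with thioacetamide at 48 h. Within 1 day mitosis with bromobenzene at 24 h was 0.42.

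Over the 8 compounds the 127 higher calls at 24 h became 79 with the fixed block. The upper 50% of genes by mean signal, which kept only 5 of 45 members and so gave no median, left 12 (22), 22 (127) and 34 (280) higher calls at 6, 24 and 48 h, and 3 (14) and 2 (1) lower calls at 6 h and 24 h. Lower calls at 6 h numbered 9 with the random block and 5 in fits of only 2 groups. At 24 h they numbered 2 with quantile normalization, 3 after centring, 5 in fits of only 2 groups and 0 with the day as a fixed or random block, the mean of all probe sets or all arrays in 1 fit. Fits of only 2 groups gave 1 lower call at 48 h.

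Leaving out each of 200 rats in turn moved 4 of 400 medians, and their ranges were 0.27 to 0.56 for replication with 1,2-dichlorobenzene at 24 h, 0.49 to 0.82 for mitosis with bromobenzene at 24 h and -0.09 to 0.13 for replication with thioacetamide at 6 h. Depth is not recorded for arrays, and signals under about 16 limit the size of a change.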
